A study of Mus musculus with 6 samples.

Results

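The unfolded protein response and the integrated stress response of KPC cells were examined here as a set of 45 named genes, of which 42 were in the count table of 10616 genes and all 42 received an adjusted p. Ern1, Eif2s1 and Derl3 were not analysed here. The genes were listed by their known function and cover stress sensors and transducers, chaperones and folding enzymes of the endoplasmic reticulum (ER), factors that degrade misfolded ER proteins, stress transcription factors with their effectors, and enzymes of amino acid and one-carbon metabolism. KPC is a mouse pancreatic ductal adenocarcinoma line, which was infected with a pLKO.1 lentivirus carrying a short hairpin RNA against Brca2 (KPC-shBrca2, 3 libraries) or a non-targeting hairpin (KPC-shControl, 3 libraries) and selected with puromycin, so both groups carry a vector and a hairpin. Cells were grown in multi-well plates in serum-containing medium, live cells were sorted, and 3' end RNA libraries were made by MARS-seq. How many hairpin sequences were used against Brca2 is not stated. The study's sources differ on what a replicate is, since a supplementary legend counts the libraries as 3 mice per group while it and the methods describe the cells as cultured, and the labels name neither animals nor cultures. The p-values therefore measure the spread between these libraries, which may be technical.

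When unfolded proteins collect in the ER, the sensors IRE1 (Ern1), ATF6 and PERK (Eif2ak3) are activated. IRE1 splices the messenger RNA of Xbp1, ATF6 is cut to release a transcription factor, and both raise chaperones such as BiP (Hspa5) through promoter elements called ERSE. PERK and the amino acid sensor GCN2 (Eif2ak4) phosphorylate the initiation factor eIF2, which slows translation while favouring that of ATF4, and ATF4 in turn raises CHOP (Ddit3), Trib3, Chac1 and genes of amino acid synthesis through elements called CARE. Pancreatic cancer cells secrete much protein and are often short of amino acids, and both responses can be active in them. RNA counts at the 3' end do not show Xbp1 splicing, eIF2 phosphorylation, ATF6 cleavage or protein levels.

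The promoter elements that connect the set to these arms are shown for the genes that report on each arm. A script searched both strands of the RefSeq promoters of build GRCm38.p6 (250 bases before to 50 after each gene start) for ERSE (CCAAT and CCACG with any 9 bases between them), ERSE-II (ATTGG and CCACG with any 1 base between them) and CARE (TGATGNAA). None of these motifs contains another. Of the 42 genes, 37 had a promoter entry. ERSE was in 8 of these 37 (21.6%), namely Calr, Canx, Creld2, Dnajc3, Hsp90b1, Hspa5, Pdia6 and Syvn1, against 0.124% of the 8075 tested genes with an entry and 0.119% of all promoters. ERSE-II was in Dnajb11 and Herpud1 (5.41%, against 0.0991% of tested genes and 0.0365% of all promoters). CARE was in Asns, Atf3, Chac1, Herpud1 and Trib3 (13.5%, against 2.64% of tested genes and 3.97% of all promoters). The tested genes include the set itself, which held 8 of the 10 tested genes with an ERSE. Because the genes were listed by their known function in these responses, the shares are a description and not a test. Each stretch is written on the strand of its gene, 5' to 3', with the motif in capitals and up to 15 bases on each side. A motif on the opposite strand appears as its reverse complement.
Hspa5, ERSE, chr2:34772010-34772058, plus strand: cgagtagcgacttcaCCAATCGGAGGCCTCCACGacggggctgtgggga
Hsp90b1, ERSE, chr10:86705623-86705671, minus strand: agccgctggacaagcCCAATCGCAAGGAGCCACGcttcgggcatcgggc
Calr, ERSE reversed, chr8:84847060-84847108, minus strand: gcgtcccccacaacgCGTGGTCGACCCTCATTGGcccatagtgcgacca
Syvn1, ERSE, chr19:6046517-6046565, plus strand: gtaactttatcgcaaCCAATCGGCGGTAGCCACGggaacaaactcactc
Herpud1, ERSE-II, chr8:94386362-94386402, plus strand: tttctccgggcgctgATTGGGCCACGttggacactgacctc
Herpud1, CARE reversed, chr8:94386302-94386339, plus strand: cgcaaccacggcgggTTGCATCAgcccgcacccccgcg
Asns, CARE, chr6:7693210-7693247, minus strand: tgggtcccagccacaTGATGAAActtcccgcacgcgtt
Chac1, CARE reversed, chr2:119351034-119351071, plus strand: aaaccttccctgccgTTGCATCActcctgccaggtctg

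The 6 libraries held 1519340 to 2452467 counts and 10532 to 10593 of the listed genes each. Brca2 itself had 10.4 to 13.6 normalized counts (counts divided by DESeq2 size factors) in KPC-shBrca2 and 32.6 to 43.6 in KPC-shControl, a log2 fold change of -1.61 (adjusted p = 0.029 by DESeq2). All 7 ductal epithelial markers were in the table, and their summed level was 16601 to 17373 normalized counts in KPC-shBrca2 and 17456 to 18583 in KPC-shControl. Of the markers of other cells, 1 of 7 for fibroblasts (Col1a2), 1 of 5 for leukocytes (Cd68), 1 of 5 for acinar cells (Cela1) and 0 of 3 for endothelium were analysed here, each with a summed level of at most 58.3 normalized counts in any library. The epithelial sum came mostly from Krt18, Krt19 and Krt8, with mean normalized counts of 9184, 4227 and 2909. Epcam was near the floor at a mean of 6.52, under Col1a2 (13.4), Cd68 (15.6) and Cela1 (43.4). Of the epithelial markers, Krt7 and Sox9 were called higher in KPC-shBrca2 (log2 fold changes of 1.21 and 1.20). Whether this bears on the stress genes was not tested.

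No gene of the set passed the test between KPC-shBrca2 and KPC-shControl. A gene was called where the DESeq2 likelihood ratio test gave an adjusted p (Benjamini-Hochberg) under 0.1, where the log2 fold change was above 0.5 or below -0.5, and where the base mean, the mean normalized count of the 6 libraries, exceeded 5. By this rule 0 of 42 stress genes were called, while 1.27% of the 9997 genes tested were (0.77% higher and 0.5% lower in KPC-shBrca2). Of the 42, 3 had an unadjusted p under 0.05 (Ddit4, Herpud1 and Pdia3), against 8.66% of all genes tested. The edgeR quasi-likelihood test also called 0 and gave 5 genes an unadjusted p under 0.05, the same 3 with Pdia4 and Eif2ak4. The normalized counts of both groups did not overlap for 6 of the 42 (14.3%), against 20.6% of all genes tested. These were Pdia4, Eif2ak4 and Herpud1, all higher in each KPC-shBrca2 library, and Ddit4, Phgdh and Shmt2, all lower. With a library left out the share among the stress genes was 16.7% to 33.3%, under that of the tested genes at the same setting, except without shBrca2 replicate 2, where it was 45.2% (19 genes) beside 33.2% of the tested genes. The count also moved by more than 1.5 times without shBrca2 replicate 3 (10 genes, 23.8% beside 29.2%), shControl replicate 1 (14 genes, 33.3% beside 35.7%) and shControl replicate 2 (11 genes, 26.2% beside 28.5%).

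The log2 fold changes, given as KPC-shBrca2 over KPC-shControl, lay between -0.51 (Ddit4) and 0.73 (Derl2), with a median of 0.10 beside a median of -0.00094 over all genes tested. The median of the set was 0.025 without shBrca2 replicate 3. Of the 42 values 26 were above 0, where 49.8% of all genes tested were. The 95% interval of the log2 fold change (estimate ± 1.96 standard errors) stayed within -1 and 1, a doubling or a halving, for 33 of the 42 genes, and within 1.5-fold in either direction for 20. The intervals that reached past 2-fold belonged to Hspa5, with a base mean of 616, and to Hyou1, Os9, Derl2, Sdf2l1, Eif2ak3, Eif2ak4, Pdia4 and Dnajb9, with base means from 7.44 (Hyou1) to 48.1 (Dnajb9).

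**Figure D1:**
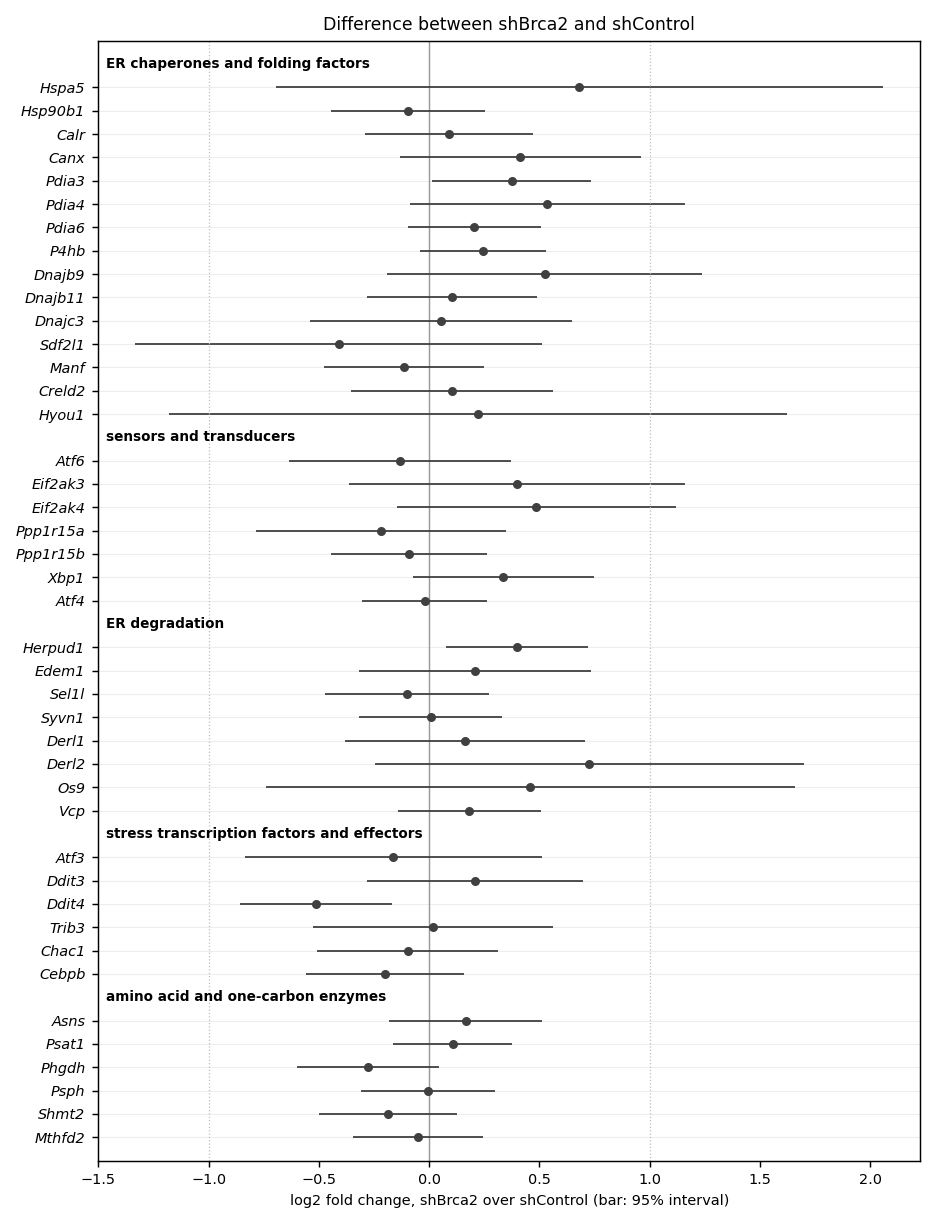
Log2 fold change of each of the 42 genes (x axis, KPC-shBrca2 over KPC-shControl) with its 95% interval as a bar, genes in rows by role; dotted lines mark -1 and 1. Only Ddit4, Herpud1 and Pdia3 have intervals that leave out 0, and the interval of Hspa5 runs from -0.70 to 2.06.

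The sensors and transducers showed no shared direction. Of the 7 genes analysed, 0 were called and 3 had a log2 fold change above 0, with a median of -0.02. Their summed level was 2979.5 to 3764 normalized counts in KPC-shBrca2 and 3226 to 3526 in KPC-shControl, with overlap. Eif2ak4, which encodes the amino acid sensor kinase GCN2, had 43.6, 51.0 and 58.3 normalized counts in the KPC-shBrca2 libraries and 32.3, 36.1 and 41.5 in the KPC-shControl libraries. The groups did not overlap, although the highest control library lay only just under the lowest knockdown library. Its log2 fold change was 0.49 ± 0.32 (SE) and DESeq2 gave an adjusted p of 0.755. Eif2ak3, which encodes PERK, had 34.1, 35.0 and 27.0 normalized counts in KPC-shBrca2 and 22.2, 22.6 and 27.7 in KPC-shControl, and the groups overlapped through replicate 3 of each. In DESeq2 this came to 0.40 ± 0.39 (log2 fold change, SE) at an adjusted p of 0.884. Atf6 had 79.0, 67.1 and 76.6 normalized counts in KPC-shBrca2 and 70.7, 78.8 and 93.9 in KPC-shControl, with overlap and a log2 fold change of -0.13.

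Xbp1, the transcription factor that IRE1 splices, had 299.7, 208 and 265 normalized counts in KPC-shBrca2 and 249.6, 188 and 173 in KPC-shControl. The lowest knockdown library was under the highest control library, and the log2 fold change of 0.34 ± 0.21 (SE) did not pass (adjusted p = 0.72 by DESeq2). Atf4, the central transcription factor of the integrated stress response, was the sensor or transducer with the highest count, at 2604, 2308 and 3041 in KPC-shBrca2 and 2839, 2552 and 2675 in KPC-shControl. Its groups overlapped fully, since all 3 control libraries lay inside the range of the knockdown libraries. The log2 fold change of -0.02 had a 95% interval from -0.30 to 0.26. ATF4 is controlled largely at translation, which was not measured. Ppp1r15a and Ppp1r15b, the subunits that direct the phosphatase for eIF2, had log2 fold changes of -0.22 and -0.09.

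Among the ER chaperones and folding factors 0 of 15 genes were called. Of these, 12 had a log2 fold change above 0 and 3 had one below (Hsp90b1, Sdf2l1 and Manf), with a median of 0.21. Their summed level was 9407, 7982 and 10403 normalized counts in KPC-shBrca2 and 9679, 7866 and 6981 in KPC-shControl, so the sums overlapped between the groups and shControl replicate 3 was the lowest of all 6. The smallest p in the group belonged to Pdia3, a disulfide isomerase that works with calnexin and calreticulin on glycoproteins. Pdia3 had 586, 398 and 479 normalized counts in KPC-shBrca2 and 430.4, 339.6 and 356 in KPC-shControl, with an overlap between the lowest knockdown and the highest control library. The 95% interval around its log2 fold change of 0.37 ran from 0.01 to 0.74, and DESeq2 gave an unadjusted p of 0.0423 and an adjusted p of 0.554. Pdia4, another disulfide isomerase, had 46.3, 61.4 and 50.5 in KPC-shBrca2 and 35.4, 38.6 and 35.6 in KPC-shControl. These groups did not overlap, and DESeq2 gave 0.53 ± 0.32 (log2 fold change, SE) and an adjusted p of 0.696. P4hb, the beta subunit of prolyl 4-hydroxylase and a disulfide isomerase itself, and Pdia6 had log2 fold changes of 0.24 and 0.21. Canx, the membrane-bound lectin chaperone calnexin, was at 0.41 with an interval from -0.13 to 0.96. The J-proteins Dnajb11 and Dnajc3, which work with BiP, were at 0.10 and 0.05. Hyou1, an exchange factor for BiP, was at 0.22 with an interval from -1.18 to 1.62, and its count was the lowest of the set. The secreted or ER-resident stress proteins Sdf2l1, Manf and Creld2 were at -0.41, -0.11 and 0.10, each with an interval that held 0.

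Hspa5, which encodes the Hsp70 chaperone BiP that holds the sensors inactive, varied more between libraries than any other of the 42 genes. It had 903, 510.5 and 863 normalized counts in KPC-shBrca2 and 782, 501 and 136 in KPC-shControl. The groups overlapped, and shControl replicate 3 stood apart from the other libraries, with the highest library 6.62 times above it. The mean was 759 ± 216 (SD, n = 3) in KPC-shBrca2 and 473 ± 324 (SD, n = 3) in KPC-shControl. In DESeq2 this came to 0.68 ± 0.70 (log2 fold change, SE) at an adjusted p of 0.898. This log2 fold change was 0.24 without shControl replicate 3 and 1.25 without shControl replicate 1, where DESeq2 gave adjusted p-values of 0.977 and 0.63. The 95% interval from -0.70 to 2.06 left the direction of any difference in Hspa5 unresolved at this spread.

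The pooled within-group coefficient of variation of Hspa5 was 44.7%. By this measure it ranked 31 among the 3773 tested genes with a base mean of at least 100, whose median was 12.6%, while the median of the 26 stress genes at that level was 10.5%. Hspa5 was the 1 gene of these 26 whose highest library exceeded its lowest by more than 2-fold, against 9.25% of the 3773 genes. Hsp90b1 and Calr, which also carry an ERSE, had narrower ranges. Hsp90b1, the ER form of Hsp90, had 534, 430.1 and 437 normalized counts in KPC-shBrca2 and 527, 565 and 401 in KPC-shControl. Calr, which encodes calreticulin, had 3386, 2715 and 4077 in KPC-shBrca2 and 4147, 2836 and 2566 in KPC-shControl. Both were lowest in shControl replicate 3, as Hspa5 was, and the ratio of highest to lowest library was 1.41 for Hsp90b1 and 1.62 for Calr. Dnajb9, an ER J-protein and a target of XBP1, had 55.8, 32.1 and 81.8 in KPC-shBrca2 and 49.5, 33.5 and 35.6 in KPC-shControl, so that shBrca2 replicate 2 was the lowest library. The interval of its log2 fold change of 0.52 ran from -0.19 to 1.24, and leaving out shBrca2 replicate 3 gave 0.14 where leaving out shBrca2 replicate 2 gave 0.81.

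Over the 42 genes, shControl replicate 3 was the lowest library for 13 (31%), beside 18.5% of all genes tested. Of these 13, 8 were chaperones or folding factors, among them Hspa5, Calr, Canx and P4hb. Its total of 2043470 counts lay within the range of the other libraries, and what set this library apart was not tested. Ssr3, a subunit of the ER translocon-associated complex that was chosen for mention after its values were seen, had a similar order, with 497, 344 and 540.4 normalized counts in KPC-shBrca2 and 503, 286 and 140.4 in KPC-shControl. The other subunits analysed did not share it. Ssr1 was lowest in shBrca2 replicate 1, Ssr2 in shControl replicate 1 and Ssr4 in shBrca2 replicate 3.

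**Figure D2:**
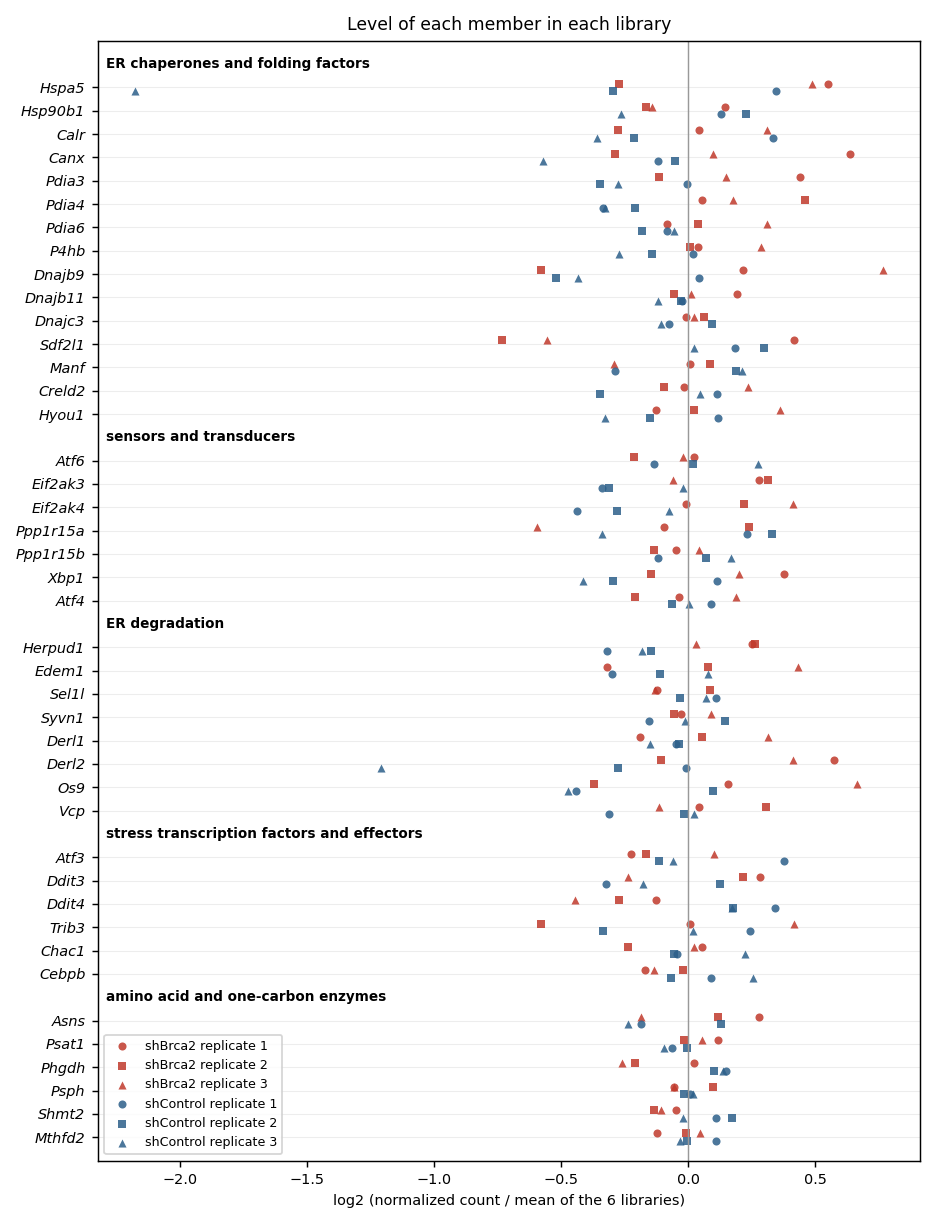
Level of each of the 42 genes in each library, as log2 of the normalized count over the mean of the 6 libraries (x axis), genes in rows by role; red marks KPC-shBrca2, blue KPC-shControl, and circle, square and triangle mark replicates 1, 2 and 3. Most points lie within 0.5 of the mean, and Hspa5 in shControl replicate 3 lies farthest out.

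**Figure D3:**
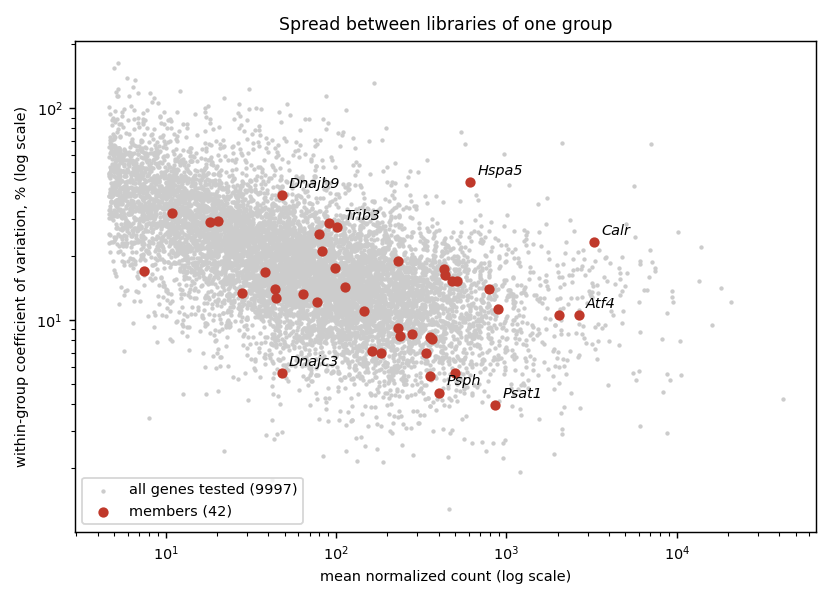
Pooled within-group coefficient of variation in percent (y axis, log scale) against mean normalized count (x axis, log scale) for the 9997 genes tested (grey) and the 42 stress genes (red). Hspa5 lies high for its count at 44.7%, while Psat1 (3.97%), Psph (4.53%) and Dnajc3 (5.60%) lie low.

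Of the 8 genes of ER-associated degradation 0 were called, 7 had a log2 fold change above 0 and the median was 0.20. Their summed level was 1923, 2128 and 1879 normalized counts in KPC-shBrca2 and 1598, 1846 and 1826 in KPC-shControl, so each knockdown library lay above each control library. Herpud1, which helps to assemble the degradation complex and carries both an ERSE-II and a CARE in its promoter, had the smallest p. It had 437, 441 and 375 normalized counts in KPC-shBrca2 and 294, 332 and 323 in KPC-shControl, and every knockdown library was above every control library. The means were 418 ± 36.9 and 316 ± 19.9 (SD, n = 3 each). The log2 fold change of Herpud1 was 0.40 with a 95% interval from 0.08 to 0.72, and DESeq2 gave an unadjusted p of 0.0153 and an adjusted p of 0.368. Sel1l, the scaffold of the ubiquitin ligase complex, had 168, 194 and 167 normalized counts in KPC-shBrca2 and 197, 179 and 192 in KPC-shControl, a log2 fold change of -0.10. Syvn1, the ligase itself, was at 0.01 on this scale, with an interval from -0.32 to 0.33. Vcp, the ATPase that pulls proteins out of the membrane, had 809, 973 and 726 in KPC-shBrca2 and 634, 777 and 799 in KPC-shControl, and its groups overlapped, with a log2 fold change of 0.18. The gaps between the means of Herpud1 and between those of Vcp (836 and 737) made up most of the difference in the summed level. Edem1, a lectin that hands misfolded glycoproteins to degradation, and Os9, which recognises their trimmed glycans, were at 0.21 and 0.46. The membrane proteins Derl1 and Derl2 were at 0.16 and 0.73, and Derl2 had 7.91 normalized counts in shControl replicate 3, its lowest library.

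Of the 6 stress transcription factors and effectors 0 were called, 2 had a log2 fold change above 0 and the median was -0.13, and the lowest value of all 42 genes was here. Ddit4, which encodes REDD1, an inhibitor of mTORC1 signalling that ATF4, p53, glucocorticoids and hypoxia can raise, had 255, 231 and 204 normalized counts in KPC-shBrca2 and 353, 314 and 313 in KPC-shControl. All 3 knockdown libraries lay under all 3 control libraries, with means of 230.0 ± 25.1 and 327 ± 22.3 (SD, n = 3 each). The log2 fold change was -0.51 with a 95% interval from -0.86 to -0.17. Its unadjusted p of 0.00364 ranked 207 among all genes, and the adjusted p was 0.178 by DESeq2 and 0.14 by edgeR, so it did not pass the threshold under either tool. The log2 fold change stayed between -0.59 and -0.43 when any library was left out.

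The groups overlapped for each of the other stress factors and effectors. Ddit3, which encodes the pro-apoptotic factor CHOP, had 119.9, 114 and 83.5 normalized counts in KPC-shBrca2 and 78.8, 107 and 87.0 in KPC-shControl, a log2 fold change of 0.21 ± 0.25 (SE). Trib3, the pseudokinase that CHOP and ATF4 raise and that in turn restrains them, had 102, 68.1 and 136 in KPC-shBrca2 and 120.2, 80.5 and 103 in KPC-shControl, a log2 fold change of 0.02. Neither gene separated the groups. Chac1, which degrades glutathione, had 151, 124 and 148 in KPC-shBrca2 and 141, 140.0 and 170.1 in KPC-shControl, a log2 fold change of -0.10 with an interval from -0.51 to 0.31. Atf3 and Cebpb, both transcription factors of the bZIP family, had log2 fold changes of -0.16 and -0.20. The summed level of the 6 genes was 801 to 868 normalized counts in KPC-shBrca2 and 899.8 to 990.2 in KPC-shControl, without overlap, and the gap between the Ddit4 means was the larger part of that difference.

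The amino acid and one-carbon enzymes had the lowest spread of the 5 role groups, with a median within-group coefficient of variation of 5.53%. This ranking is not at equal counts, since all 6 enzymes had a base mean of at least 100. In the other roles 9 of 15 chaperones, 3 of 7 sensors and transducers, 4 of 8 degradation genes and 4 of 6 stress factors did. None of the 6 enzymes was called, and 2 had a log2 fold change above 0 (Asns and Psat1). Their summed level overlapped between the groups, at 2862 to 3091 and 2862 to 3079 normalized counts in KPC-shBrca2 and KPC-shControl. Asns, the asparagine synthetase and a classical ATF4 target with a CARE just before its start, had 622, 557 and 452 normalized counts in KPC-shBrca2 and 452, 562 and 436 in KPC-shControl. The groups overlapped, and the log2 fold change of 0.17 had an interval from -0.18 to 0.51. The serine synthesis pathway runs through Phgdh, Psat1 and Psph. Phgdh, its entry enzyme, had 345, 294 and 284 in KPC-shBrca2 and 377, 364 and 374 in KPC-shControl, without overlap. DESeq2 gave -0.28 ± 0.16 (log2 fold change, SE) and an adjusted p of 0.696. Psat1 had 933, 852 and 894 in KPC-shBrca2 and 823, 857 and 806 in KPC-shControl, where only shBrca2 replicate 2 fell inside the control range. Psph was at -0.0033 on the log2 scale, with an interval from -0.31 to 0.30, and the values of these 3 enzymes did not share a sign. Shmt2, which passes the serine carbon to folate in mitochondria, had 345, 324 and 331 in KPC-shBrca2 and 384, 401 and 351 in KPC-shControl, again without overlap. DESeq2 gave -0.19 ± 0.16 (log2 fold change, SE) and an adjusted p of 0.863. Mthfd2, the next mitochondrial enzyme, had a log2 fold change of -0.05.

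The genes were also grouped by promoter element. The 8 genes with an ERSE had a median log2 fold change of 0.10 and a range from -0.10 to 0.68, with 7 of 8 above 0. The 29 others with a promoter entry had a median of 0.11 with 17 above 0. These 29 include the 2 genes with an ERSE-II, Dnajb11 at 0.10 and Herpud1 at 0.40. The 35 genes without an ERSE-II had a median of 0.10. The 5 genes with a CARE had a median of 0.02 and a range from -0.16 to 0.40, with the highest value in Herpud1. The 32 without one had a median of 0.11.

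The wider pathway was examined through 75 further genes of ER folding and translocation, ER degradation, eIF2 and its kinases, and ATF4 or CHOP targets, of which 71 received an adjusted p. Of the 75, 1 was called (Dnajc10), while 1.27% of all genes tested were, and 6 had an unadjusted p under 0.05, as did 8.66% of all genes tested. The groups did not overlap for 12 of the 71 tested (16.9%), against 20.6% of all genes tested. Dnajc10 encodes ERdj5, an ER reductase that works with BiP to open disulfides of proteins bound for degradation. It had 489, 458 and 564 normalized counts in KPC-shBrca2 and 344, 330.4 and 328 in KPC-shControl, so each knockdown library was well above all control libraries. It rose by a log2 fold change of 0.59 ± 0.16 (SE), and DESeq2 gave an adjusted p of 0.0289 and edgeR one of 0.076. The call was lost when shBrca2 replicate 3, shControl replicate 2 or shControl replicate 3 was left out (adjusted p of 0.213, 0.256 and 0.163 by DESeq2), while the log2 fold change stayed between 0.50 and 0.66. Txndc5, an ER thioredoxin, had 181, 162 and 191 in KPC-shBrca2 and 107, 118 and 119.6 in KPC-shControl. Across Txndc5 libraries the log2 fold change was 0.63 ± 0.20 (SE), DESeq2 gave an adjusted p of 0.137 and edgeR one of 0.0919, so it was called by edgeR alone. Ganab, the catalytic subunit of glucosidase II that trims glycans for the calnexin cycle, had 440.0, 521 and 506 in KPC-shBrca2 and 671, 627 and 615 in KPC-shControl, which is -0.38 as a log2 fold change, and DESeq2 gave an adjusted p of 0.326. All 75 together had a median log2 fold change of 0.02. Among the 19 ATF4 and CHOP targets, 0 were called, 10 values were above 0 and the median was 0.0086. Their summed level was 2641 to 2783 normalized counts in KPC-shBrca2 and 2788 to 2954 in KPC-shControl, without overlap, although the closest libraries nearly met at 2783 and 2788. Slc3a2 alone, with means of 627 in KPC-shBrca2 and 781 in KPC-shControl, had a wider gap than the mean sums of the groups. The separation therefore does not describe these targets as a group. The 25 genes of ER folding, translocation and glycan control include Dnajc10. They summed to 7709.6 to 7876 in KPC-shBrca2 and 7192 to 7365 in KPC-shControl, also without overlap. Their median log2 fold change was 0.05, with 15 values above 0 and 10 below, so this sum does not describe the list as a group either. Sec61b, with means of 961 in KPC-shBrca2 and 763 in KPC-shControl, had a wider gap than Dnajc10, with means of 503 and 334. The sums of the further ER degradation genes and of the eIF2 genes overlapped.

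**Figure D4:**
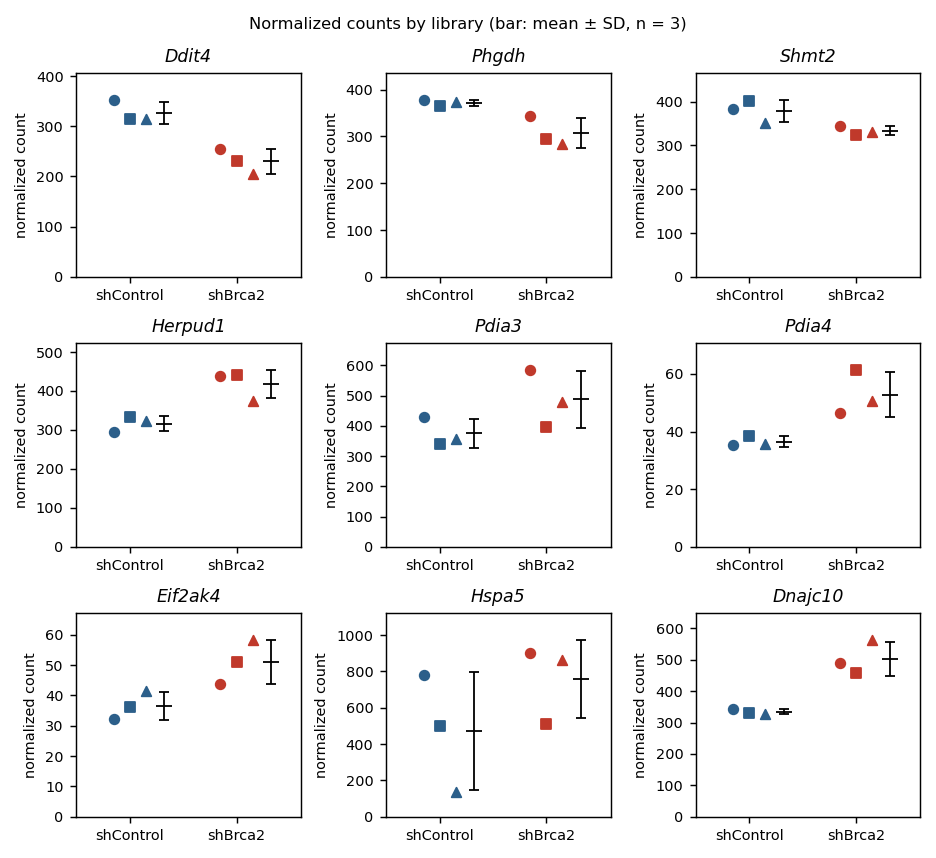
Normalized counts (y axis, from 0) of 9 genes in each library, KPC-shControl in blue and KPC-shBrca2 in red, with circle, square and triangle for replicates 1, 2 and 3 and a bar for mean ± SD (n = 3). Ddit4, Phgdh and Shmt2 are lower and Herpud1, Pdia4, Eif2ak4 and Dnajc10 higher in every KPC-shBrca2 library, while Pdia3 and Hspa5 overlap.

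Some counts are uncertain because another gene overlaps, and the sources used here do not give the strand setting of the counting. In the RefSeq table of GRCm38.p6 this applies to Hspa5 (chromosome 2, 34772090 to 34776529, overlapping Rabepk), Pdia3 (chromosome 2, 121413902 to 121438687, overlapping Catsper2) and Ddit3 (chromosome 10, 127290793 to 127296291, overlapping Mbd6 and Mars1), all with the partner on the opposite strand. Among the other genes, Atf6, Pdia6, Ppp1r15a, Syvn1, Derl2, Psph and Shmt2 also overlap a protein-coding gene. No overlapping gene was listed for Ddit4 (chromosome 10, 59949675 to 59951770, minus strand), Herpud1 (chromosome 8, 94386429 to 94395371, plus strand) or Atf4 (chromosome 15, 80255184 to 80257545, plus strand).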

How the data were processed

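RNA of sorted live KPC cells was profiled in 3 shBrca2 and 3 shControl libraries (MARS-seq, 3' end). The authors deposited whole-number counts for each gene symbol and library, neither normalized nor pooled, with totals from 1519340 to 2452467. The submitters' processing notes name bcl2fastq, cutadapt, STAR 2.4.2a, HTSeq and DESeq2 with build mm10. The annotation, the strand setting and the use of molecular identifiers are not given in the sources used here. Whether the counts include amplification duplicates is therefore not known. The intervals cover the spread between libraries, of which any such noise would be a part. Because reads come from the 3' end, counts were not divided by length. Each listed gene has at least 6 counts in some library.

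Counts were tested with DESeq2 1.42.0 in R 4.3.3 (likelihood ratio test of group, median-of-ratios size factors, no shrinkage), a test and thresholds taken from the study's methods. An adjusted p was given to 9997 genes, and 619 had none, 618 of them under the filter on low means. The alternatives were edgeR 4.0.16 (quasi-likelihood), the Wald test, other size factors, filters and thresholds, and each library left out. The pipeline was tested on simulated counts. Groups came from the source names, and library numbers follow accession order.

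The members and gene lists were chosen with earlier results of these data known, so they give no independent support. Values in every library are given for members called, with an unadjusted p under 0.05 or without overlap between groups, for the member of highest count in each role, and for 16 listed sensors and reporters, of which Ern1 and Derl3 were not analysed here. Of the other pathway genes, those called and the 3 of smallest p were named. Sequences and positions came from RefSeq tables of GRCm38.p6, the assembly that mm10 denotes.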

Additional observations from a re-analysis of the deposited data

How the results depend on the processing

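None of the 42 stress genes was called under any of the 16 alternatives. The count with an unadjusted p under 0.05 was 5 by edgeR instead of 3 and ranged from 2 to 5 when a library was left out. Genes without overlap between the groups numbered 6, and from 7 to 19 with a library left out, the most without shBrca2 replicate 2, where 33.2% of the tested genes did not overlap. The median log2 fold change of the set, 0.10, ranged from 0.025 without shBrca2 replicate 3 to 0.14 without shBrca2 replicate 2. Over all genes, 127 were called, but 47 when shBrca2 replicate 3 was omitted, 55 when shControl replicate 2 was and 81 when shBrca2 replicate 1 was, and the other omissions gave up to 140 (shControl replicate 1). Among the further pathway genes, edgeR called 2 (Dnajc10 and Txndc5, the latter at a log2 fold change of 0.63), and between 0 and 1 were called with a library left out. The log2 fold changes that turned direction lay near 0: Atf4 ranged from -0.13 to 0.070, Calr from -0.060 to 0.33, Trib3 from -0.26 to 0.24 and Hsp90b1 from -0.23 to 0.0057. The cause was not tested. Of 399 comparisons of a named gene with an alternative, 388 kept direction and call. No paired analysis was possible because the labels give the groups no shared replicate numbers. Counts under about 20 limit Hyou1, Os9 and Derl2, whose intervals allow changes of more than 2-fold.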
